A study of Mus musculus with 34 samples.

Results

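Lars2 and 8 other nuclear genes for mitochondrial aminoacyl-tRNA synthetases were followed through 34 mouse RNA sequencing libraries that differed in how ribosomal RNA (rRNA) was handled. The 9 genes (Lars2, Aars2, Fars2, Iars2, Mars2, Pars2, Sars2, Vars2 and Yars2) were chosen by name and function, with earlier results of these libraries known, to set Lars2 beside genes of the same function. All 9 were found among the 51368 genes of the table, and all 9 passed the filter on low counts. Because the contrasts between selection methods and between tissues entered that choice, they are described for these genes without p-values, and where a count of calls is given beside the share over all genes nothing is read from it. Fragment length, PCR ramp rate and batch did not enter it and were tested.

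Aminoacyl-tRNA synthetases attach each amino acid to its transfer RNA (tRNA), the step that fixes the genetic code before translation. Mitochondria translate their own small set of respiratory chain proteins on their own ribosomes, with tRNAs encoded in mitochondrial DNA, while the synthetases that charge them are made from nuclear genes and imported. Liver and heart are both rich in mitochondria. The letter at the start of each symbol gives the amino acid: leucine for Lars2, alanine for Aars2, phenylalanine for Fars2, isoleucine for Iars2, methionine for Mars2, proline for Pars2, serine for Sars2, valine for Vars2 and tyrosine for Yars2.

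All libraries came from 1 wild-type C57BL/6J mouse aged 12 weeks, whose sex is female by one label and male by another. The same liver RNA was prepared in each liver library, so every p-value here measures the spread between technical preparations of 1 animal. Selected libraries were 9 polyA (TruSeq Stranded mRNA, capture by the poly(A) tail), 9 pull-down (TruSeq Stranded Total RNA, rRNA removed with probes) and 9 digestion (Illumina's stranded ligation kit with Ribo-Zero Plus, rRNA degraded enzymatically), each at 3 PCR ramp rates and 3 fragment lengths from 200 ng of RNA. Unselected libraries, made from 20 ng with no step against rRNA and with a slow ramp and medium fragments, were 3 from liver in batch 1, 3 from liver in batch 2 and 1 from heart in batch 1. Batch 1 held the polyA libraries and batch 2 those of pull-down and digestion. A difference of polyA from either thus cannot be told apart from a difference between batches. Each method also had its own library kit, so the handling of rRNA cannot be told apart from the kit. Selected and unselected libraries differed in input as well, which cannot be told apart from selection.

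Library totals were 19.9 to 41.4 M counts in 33 of the libraries. The slow-ramp, long-fragment pull-down library held 1.13 M (the low-depth library) and stands apart throughout, so results that rest on it are given with and without it. The 5 hepatocyte markers made up 5.56 to 5.9% of counts other than rRNA and Lars2 in unselected liver, 9.13 to 9.75% in polyA, 6.06 to 7.78% in pull-down, 7.07 to 7.53% in digestion and 0.0159% in heart, whereas the 5 cardiomyocyte markers made up 2.36% in heart and at most 9.7e-05% in liver. Other markers also differed between methods on the same RNA: 4 Kupffer cell markers summed to 0.0162 to 0.0215% in pull-down and 0.01 to 0.0133% in the other liver libraries, 4 endothelial markers to 0.00821 to 0.00897% in polyA and 0.0184 to 0.0299% in the other liver libraries, and 2 blood markers to 0.000271 to 0.000526% in digestion and 0.0156 to 0.0385% in the others. The part of these differences in the results between methods was not tested. Between heart and liver, as bulk tissues, fewer cells of a type and less RNA per cell cannot be told apart.

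Lars2 (ENSMUSG00000035202) lies on the plus strand of chromosome 9 at 123366927 to 123462666 (GRCm38, GENCODE M21) and is annotated with 9 transcripts, the longest of 3894 bases in 21 exons. Its levels are set below beside CT010467.1, an annotated rRNA gene on the minus strand of chromosome 17 at 39846353 to 39848827, so the longest stretches that the longest Lars2 transcript shares with it were read from the annotation's transcript sequences. They are shown to put their length beside the levels. The longest same-strand run was 11 bases, in exon 12 before the stop codon. The longest opposite-strand run was 13 bases, in the 3′ UTR in exon 21. The run length to be met between unrelated sequences was not computed. Of rRNA sequences only the annotated CT010467.1 was searched for such runs, so they cannot show whether Lars2 resembles other rRNA sequence. The 1 other gene compared in this way, chosen after values were seen, was Gm15564, an antisense transcript gene of chromosome 16 with 0 to 2 counts in every library, and it shares a same-strand run of 52 bases with the Lars2 3′ UTR, of which the start is shown. Letters are in capitals where both transcripts carry them, 5′ to 3′ on the Lars2 strand.
Lars2 and CT010467.1, same strand, chr9:123436249-123436259: CCGATCCCCAT
Lars2 and CT010467.1, opposite strand, chr9:123462586-123462598: CTTGTCTCAAAGA
Lars2 and Gm15564, first 30 bases of the run, chr9:123462048-123462077: GAATTCACCAAGCGTTGGATTGTTCACCCA

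Over all Lars2 transcripts, 0.869% of the 11160 distinct 31-base words also occurred in another gene on the same strand, and 0 of the 306 genes typed as rRNA held any of them. The most words were shared with Gm47414 (38 words), Gm36618 (35) and Cd38 (25), and similarity to rRNA sequences outside the annotation was not measured. The transcript set the reads were assigned to is not given in the sources used here. How many of the Lars2 counts came from rRNA was not tested, because no read positions were used.

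In unselected libraries Lars2 held several percent of all counts, far above any of its relatives. The share was 7.79, 8.09 and 8.07% in the batch 1 liver libraries, 8.75, 8.78 and 8.52% in those of batch 2 and 6.14% in heart. The 6 liver libraries lay close together, with a coefficient of variation of 1.6% in batch 1 and 2.7% in batch 2 on normalised CPM (counts scaled to the library total and by TMM, the trimmed mean of M values), and heart lay below all 6. In the same libraries CT010467.1 held 72.5 to 73.5%, 70 to 71.2% and 58.3%.

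Selected libraries held far less Lars2. Normalised CPM of Lars2 was 337784, 342308 and 348718 in unselected batch 1, and in polyA libraries the lowest, median and highest were 79.5, 111 and 157. Pull-down libraries lay lower, with 8.39 to 18 in 8 of them and a median of 13.7, while the low-depth library stood at 18175. Digestion libraries lay between 50.5 and 97.8 in 8 of them and at 214 in the library with a fast ramp and medium fragments. No selected library overlapped the unselected ones. In mean normalised CPM, unselected libraries of the same batch were 2879-fold above polyA and 4067-fold above digestion. They were 26281-fold above pull-down without the low-depth library (174-fold with it). The size of these folds depends on the scaling. As a mean share of all counts Lars2 held 7.99% in unselected batch 1 against 0.0172% in polyA. In unselected batch 2 it held 8.68%, against 0.0148% in digestion and 0.00157% in pull-down without the low-depth library. Without that library, the pull-down libraries lay below all polyA and all digestion libraries, by 8.87-fold and 6.46-fold in mean level.

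The ratio of Lars2 to CT010467.1 moved far less than either gene. Per 100 counts of CT010467.1, Lars2 had 10.6, 11.1 and 11.1 counts in unselected batch 1, 12.3, 12.5 and 12 in batch 2, and 10.5 in heart. PolyA libraries had 7.31 to 10 (median 8.15) and pull-down libraries 8.02 to 16.1 (median 11.1), the highest being the low-depth library. Digestion libraries had 3.66 to 5.08 (median 4.35), below every other library. Inside the digestion set the ratio stayed in that range although Lars2 itself differed 4.23-fold between libraries, and the library highest in Lars2 was also highest in CT010467.1, at 0.851% of counts against 0.17 to 0.398% in the other digestion libraries.

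**Figure D1:**
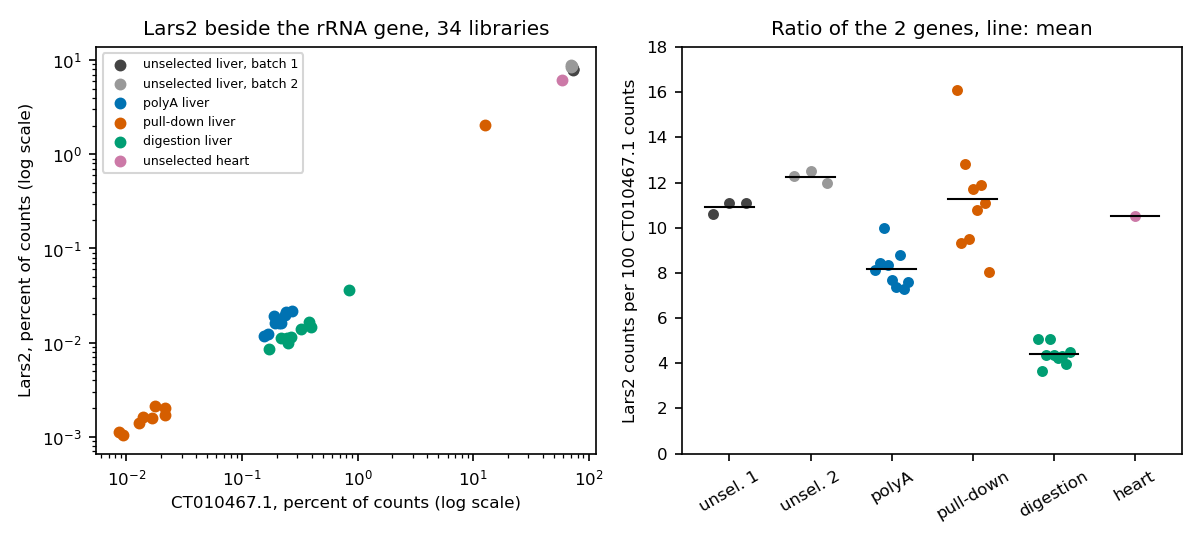
Left, percent of counts of Lars2 (y) against the rRNA gene CT010467.1 (x) in each of the 34 libraries, both axes on log scales, coloured by group; the single orange point near 2.05% is the low-depth pull-down library. Right, Lars2 counts per 100 CT010467.1 counts by group with the mean as a line, where the 9 digestion libraries (3.66 to 5.08) sit below all others.

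Across the 33 liver libraries, CT010467.1 was the gene whose pattern was most like that of Lars2 among the genes tested, with a Pearson correlation of log2 normalised CPM of 0.994 (0.994 without the low-depth library). Next came Gm28035 with 0.930, the UDP-glucuronosyltransferase gene Ugt1a7c with 0.927, Gm28539 with 0.897 and Gm28635 with 0.874. These libraries share 1 RNA and fall into selected and unselected sets, so the correlation of Lars2 with CT010467.1 was also taken inside each set. It was 0.920 over 9 polyA, 0.903 over 8 full-depth pull-down and 0.977 over 9 digestion libraries, and -0.491 over the 6 unselected liver libraries, where Lars2 was higher and CT010467.1 lower in batch 2 than in batch 1 in mean level. The Gm genes and Ugt1a7c were at most at 108 normalised CPM in any group mean. By Spearman rank the first 5 were mt-Nd4l, CT010467.1, mt-Nd5, Nek9 and mt-Nd4, of which 1 was on the first list. The 8 relatives had Pearson correlations with Lars2 between -0.621 (Yars2) and -0.025 (Mars2).

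Under TMM scaling the 8 relatives differed little between methods beside Lars2. The highest of the 5 liver group means was 1.24-fold (Iars2) to 2.03-fold (Mars2) above the lowest, while the median over all genes tested was 1.73-fold and Lars2 stood at 4067-fold. Without the low-depth library Lars2 stood at 26281-fold and the median of all genes at 1.74-fold. Summed over the 8 relatives there were 455 to 534 counts in an unselected liver library and 3672 to 8364 in a selected one at full depth, so the unselected libraries measure these genes with few reads. Lars2 counts were 3166 to 3866 times this sum in unselected liver, 0.577 to 1.33 times in polyA, 0.462 to 1.98 times in digestion and 0.0623 to 0.159 times in pull-down at full depth.

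**Figure D2:**
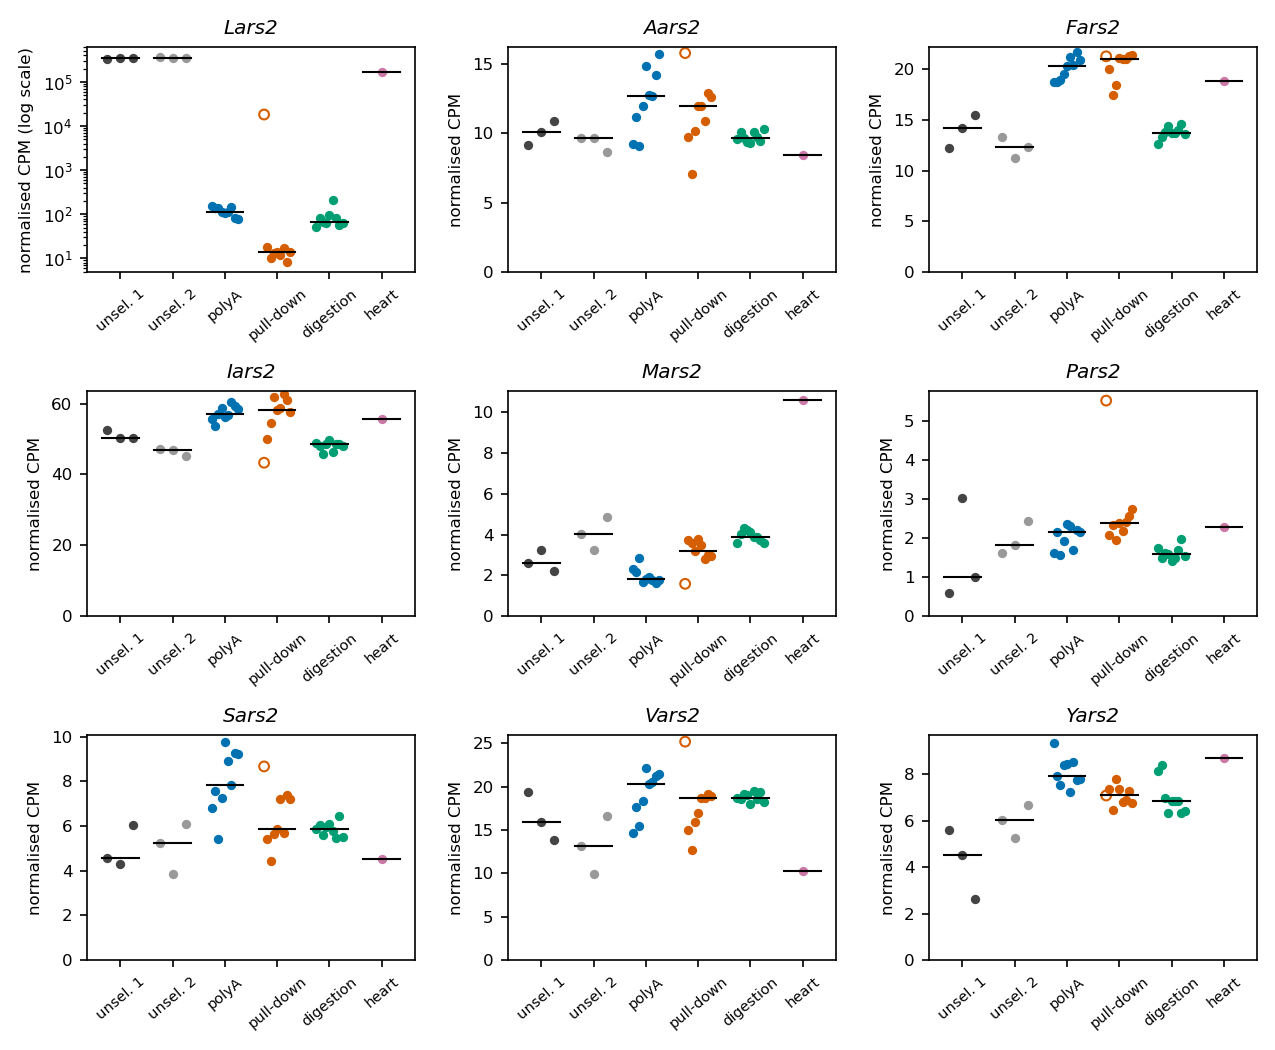
Normalised CPM (y) of each of the 9 genes in every library, by group (unsel. 1 and unsel. 2 are the 2 batches of unselected liver), with the group median as a line and the low-depth pull-down library as an open circle; the Lars2 axis is on a log scale and the others start at 0. Lars2 spans from 8.39 to 360999, whereas no relative exceeds 62.6.

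The relatives are spread over the genome (GRCm38): Iars2 lies on chromosome 1 at 185284726 to 185329396, minus strand, and Mars2 on the same chromosome at 55237177 to 55248470, plus strand. Aars2 and Vars2 lie on chromosome 17 at 45506841 to 45520843, plus, and 35655634 to 35667592, minus. The others are on the plus strand: Fars2 on chromosome 13 at 36117412 to 36726280, Pars2 on chromosome 4 at 106651069 to 106655282, Sars2 on chromosome 7 at 28741992 to 28753871 and Yars2 on chromosome 16 at 16302965 to 16309640.

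Levels between genes were compared per kilobase of annotated exon. Lars2 ranked first of the 9 in all 6 unselected liver libraries, in heart, in 9 of 9 polyA libraries and in 7 of 9 digestion libraries, where it was second in the other 2. In pull-down it ranked first only in the low-depth library and seventh or eighth in the other 8. That place depends on the length used: in the mean of the 8 full-depth libraries it had rank 7 per kilobase of all annotated exons (1.21 normalised CPM per kilobase) and rank 4 per kilobase of the longest transcript (3.45). Among the relatives the isoleucine enzyme gene Iars2 was highest in every group, at 5.74 ± 0.147 normalised CPM per kilobase in unselected batch 1 (SD, n = 3) and 6.46 ± 0.238 in polyA (SD, n = 9). Vars2 and Fars2 followed in the liver groups, at 3.5 and 3.49 in polyA, a difference within their spread. Aars2, Yars2 and Sars2 formed a close middle group at 2.61, 2.57 and 2.42 in polyA, also within their spread. Per kilobase of the longest transcript Fars2 stood at 5.96, Vars2 at 4.31 and Sars2 at 4.29 in polyA, so the order among these genes also depends on the length used. Per kilobase of annotated exon Pars2 at 0.645 and Mars2 at 0.176 were lowest. Pars2 also had the widest relative spread of the 9 genes in unselected liver of batch 1, with 0.599, 1.01 and 3.02 normalised CPM on 3 to 14 counts. Mars2 is a single-transcript gene with 11294 annotated exon bases, against 3094 to 8885 in the other relatives, and counts were not resolved along it.

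Some relatives share sequence with genes on the opposite strand, and the strand setting of the counting is not given in the sources used here. For Iars2, 23.5% of 31-base words occurred on the opposite strand of another gene, mainly Rab3gap2 with 2004 words. The shares were 9.81% for Fars2, with Nrn1 leading, and 7.28% for Vars2, all with Gm20483, which had 0 counts in every library. Per library, Rab3gap2 had 22 to 1046 counts and Nrn1 20 to 7030. Counts of Iars2 and Fars2 are therefore uncertain, by an amount that was not measured. Aars2 and Yars2 shared 0 words with any other gene on either strand.

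Between polyA and unselected batch 1, the tyrosine gene Yars2 and the phenylalanine gene Fars2 differed most clearly among the relatives. Yars2 had 2.62, 4.53 and 5.59 normalised CPM in the unselected libraries and a lowest, median and highest of 7.22, 7.92 and 9.36 in polyA. Fars2 had 12.2, 14.2 and 15.5 against 18.8, 20.3 and 21.7, and Iars2 50.2, 50.4 and 52.5 against 53.6, 57 and 60.4. In these 3 genes the groups did not overlap, and all 3 were higher in polyA, by 1.91-fold, 1.44-fold and 1.12-fold in mean level; the other 5 overlapped. Groups did not overlap in 44.0% of all genes tested. Adjusted p was under 0.05 in edgeR's quasi-likelihood test for 5 of the 9 genes, 1 lower (Lars2) and 4 higher, beside 50.4% of all genes (24.8% lower and 25.6% higher). Nothing is read from that count, since the contrast entered the choice of the genes.

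Against unselected batch 2, Fars2 was again the clearest relative in pull-down, with 11.3, 12.3 and 13.3 normalised CPM unselected and 17.5, 21 and 21.4 as the lowest, median and highest in pull-down. It was the 1 relative whose groups did not overlap there, at 1.65-fold. Without the low-depth library Iars2 also did not overlap, at 1.25-fold (groups did not overlap in 23.7% of all genes, and in 33.9% without that library). In digestion it was the valine gene Vars2 that did not overlap, with 9.89, 13.1 and 16.6 unselected and 18, 18.7 and 19.5 in digestion, 1.42-fold in mean level, where 27.2% of all genes did not overlap. Adjusted p was under 0.05 for 3 of 9 genes in pull-down, beside 32.8% of all genes, and for 2 of 9 in digestion, beside 14.7%, and nothing is read from these counts either.

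In digestion Mars2 was higher and Fars2 lower than in polyA, whereas between polyA and pull-down both genes overlapped. Mars2 had 1.64, 1.82 and 2.86 normalised CPM (lowest, median, highest) in polyA, 2.8, 3.35 and 3.8 in the 8 full-depth pull-down libraries and 3.6, 3.86 and 4.33 in digestion. Fars2 had 20.3 as its median in polyA and 21 in pull-down but 13.7 in digestion, where its highest library, 14.6, lay below the lowest polyA and pull-down libraries. Counting Fars2 per Mars2 count needs no scaling between libraries: the ratio was 6.63 to 13.2 in polyA, 4.85 to 7.5 in full-depth pull-down and 3.19 to 3.93 in digestion. The polyA and digestion libraries did not overlap in this ratio, and neither did digestion and full-depth pull-down. The unselected liver libraries of the 2 batches did not overlap either, with 4.4 to 7 in batch 1 and 2.54 to 3.5 in batch 2, on 11 to 24 counts of Mars2 per library. Batch 1, which holds polyA, was the higher one, so method and batch cannot be told apart in polyA against digestion. Digestion and pull-down are both in batch 2 but were made with different library kits. The handling of rRNA and the kit cannot be told apart there.

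PolyA and digestion libraries did not overlap in 3 of the 8 relatives, beside 50.8% of all genes: Fars2 and Iars2 were higher in polyA, by 1.46-fold and 1.19-fold, and Mars2 was 1.98-fold lower. The Iars2 difference depends on the scaling: as a percent of all counts it was 0.0076 to 0.00883 in polyA and 0.00783 to 0.00845 in digestion, which overlap. Digestion and pull-down did not overlap in 1 relative, Fars2, at 1.48-fold higher in pull-down, beside 29.1% of all genes. Without the low-depth library they did not overlap in Iars2 either, beside 41.5% of all genes, and none of the 8 separated polyA from pull-down, where 21.4% of all genes did (32.8% without the low-depth library). Adjusted p was under 0.05 for 5 of 9 genes in digestion against pull-down (70.7% of all genes), 5 of 9 in polyA against pull-down (72.6%) and 7 of 9 in polyA against digestion (80.6%), again with nothing read from the counts. On library totals in place of TMM, the median of all genes shifted from -0.01 to 0.55 (log2) in digestion against pull-down, and Iars2 then had a log2 value of 0.31, the other direction, while Fars2 and Pars2 stood near 0 at 0.01 and 0.03.

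**Figure D3:**
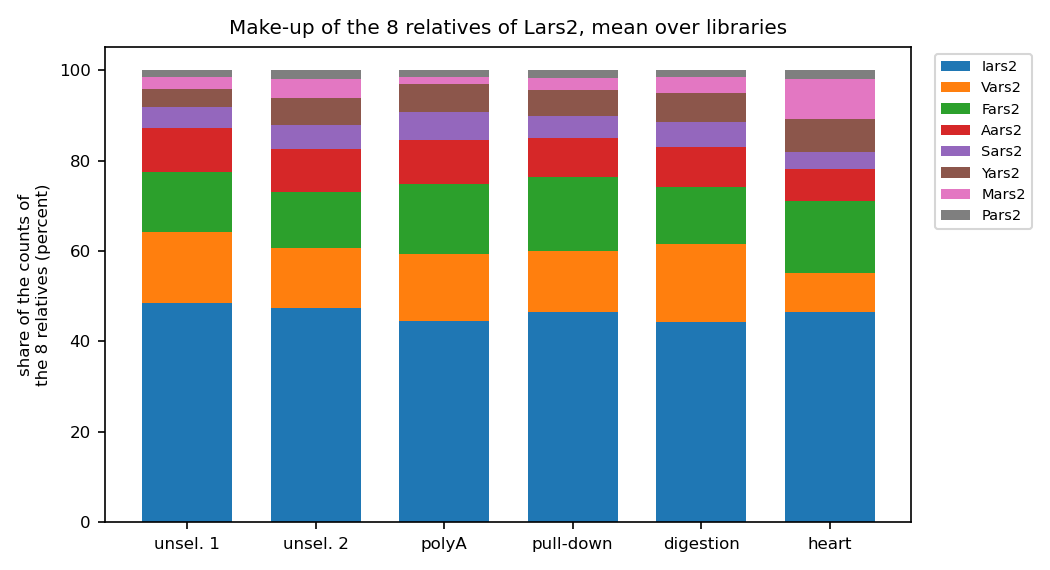
Mean share (percent, y) of each of the 8 relatives in their summed counts, by group, with pull-down over its 8 full-depth libraries; shares need no scaling between libraries. Iars2 is the largest part in every group, Mars2 is thinnest in polyA (1.56%) and thickest in heart (8.9%), and Vars2 is thinner in heart (8.6%) than in liver.

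Genes that work beside these enzymes were described from 3 lists chosen with earlier results known, so their counts and medians between methods are a description that supports nothing, and no p-values are given for their genes there. In polyA against unselected batch 1, 14 of 20 mitochondrial translation factor and tRNA processing genes were higher and 0 lower by edgeR's quasi-likelihood test, beside 25.6% of all genes higher. They included Hsd17b10, a subunit of mitochondrial RNase P, with log2 0.80 ± 0.07 (SE), and the initiation factor gene Mtif3 with 0.70 ± 0.11. Of 13 genes for other mitochondrial or shared synthetases and for subunits of the glutaminyl-tRNA amidotransferase 6 were higher and 0 lower. They were led by Hars2 for histidine with 0.46 ± 0.09. Of 21 genes for cytosolic synthetases and their scaffold proteins 16 were higher and 0 lower, led by the scaffold gene Aimp1 with 0.91 ± 0.11. The list medians were 0.50, 0.35 and 0.39 against 0.04 over all genes tested and 0.30 over the 8 relatives. These counts depend on the scaling: on library totals 20 of 20, 13 of 13 and 21 of 21 genes were higher, where the median of all genes was 2.67, and on totals without rRNA genes and Lars2 18, 10 and 20 were higher, where it was 0.30. The list medians lay above that of all genes in each case, at 3.15, 3.00 and 3.04 and at 0.77, 0.62 and 0.66. In pull-down against unselected batch 2 the list medians under TMM were 0.41, 0.25 and 0.22, against 0.06 over all genes. In digestion against unselected batch 2 they lay below that of all genes, at -0.08, -0.20 and -0.17 against 0.04. On totals without rRNA genes and Lars2 these digestion medians were 0.47, 0.35 and 0.39 against 0.59.

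The same lists lay lower in digestion than in pull-down under TMM, and that direction turned for most of their genes on library totals. Under TMM, 17 of 20 translation and processing genes were lower and 0 higher. Of the 13 other mitochondrial synthetase and amidotransferase genes 9 were lower and 1 higher. Of 21 cytosolic genes 18 were lower and 2 higher, beside 36.0% of all genes lower. On library totals the counts were 4 lower and 10 higher, 1 lower and 10 higher, and 6 lower and 13 higher. Relative to the median of all genes, the list medians were lower under both: -0.43, -0.35 and -0.29 against -0.01 under TMM, and 0.13, 0.21 and 0.27 against 0.55 on totals. Gatb, a subunit of the amidotransferase that completes mitochondrial glutaminyl-tRNA, stood at -0.67 ± 0.04 (SE) under TMM. The 22 tRNA genes of the mitochondrial genome, the substrates of these enzymes, were listed at 0 counts in all 34 libraries.

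With fragment length 7 of the 9 genes changed in the 27 selected libraries, 5 lower and 2 higher with long fragments, beside 46.3% of all genes tested (20.5% lower and 25.7% higher). In long against short fragments by edgeR's quasi-likelihood test, Aars2 fell by 0.32 on the log2 scale (SE 0.08, adjusted p = 0.00299), Sars2 fell by 0.26 (SE 0.08, adjusted p = 0.0114) and Vars2 fell by 0.24 (SE 0.07, adjusted p = 0.00522). Fars2 and Iars2 fell by 0.13 and by 0.10, with adjusted p of 0.00192 and 0.0132. Mars2, the gene with the longest annotated exons, rose by 0.28 (SE 0.07, adjusted p = 0.00267) and Yars2 by 0.12 (SE 0.05, adjusted p = 0.0451). The Yars2 call was lost on library totals (adjusted p = 0.56), on totals without rRNA genes and Lars2 (0.525), with no filter on low counts (0.0697) and with matched sets of libraries as a block (0.0637), and the Iars2 call with no filter (0.0726). DESeq2 called Lars2 (adjusted p = 0.00236). Pars2 had -0.14 (95% interval -0.33 to 0.05) and Lars2 3.22 (0.38 to 6.07, adjusted p = 0.0718), the latter 0.24 ± 0.22 (SE) without the low-depth library. In the 3 lists 4 were higher and 3 lower of 20, 3 and 4 of 13, and 6 and 5 of 21 under TMM. On library totals, where the median of all genes was -0.06, the counts were 2 higher and 6 lower, 1 and 6, and 2 and 9, and on totals without rRNA genes and Lars2 they were 3 and 5, 1 and 5, and 2 and 9. Trnt1, which adds the CCA end to tRNAs, had the largest change among them at 0.46 ± 0.07 (adjusted p = 1.63e-05).

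Within polyA the length effect was clear in single libraries. Aars2 had 15.7, 14.2 and 12.7 normalised CPM with short fragments (fast, medium and slow ramp) and 9.12, 11.2 and 9.24 with long ones. Vars2 had 21.5, 21.2 and 20.5 against 15.5, 17.7 and 14.6. For both genes the long and short libraries did not overlap, and the changes were -0.56 ± 0.08 and -0.43 ± 0.05 (log2, SE; adjusted p = 6.98e-05 and 2.75e-05). Sars2 changed by -0.44 ± 0.10 (adjusted p = 0.00271). Mars2 had 1.76, 1.64 and 1.78 with short and 2.86, 2.14 and 2.29 with long fragments, a rise of 0.47 ± 0.13 (adjusted p = 0.00774 in edgeR and 0.0881 in DESeq2).

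Lars2 also rose with length within polyA. It had 79.5, 82.9 and 146 normalised CPM with short fragments (fast, medium and slow ramp) and 138, 139 and 157 with long ones. The groups overlapped through the slow-ramp short library, and the change was 0.51 ± 0.13 (adjusted p = 0.00555). CT010467.1 changed in the same libraries by 0.36 ± 0.12 (adjusted p = 0.0211), and its part in the Lars2 result was not tested. Within polyA 7 of the 9 genes were called, beside 56.3% of all genes.

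In digestion libraries the length changes of Aars2, Vars2 and Sars2 lay near 0. Aars2 had 10.3, 9.42 and 9.75 normalised CPM with short fragments (fast, medium and slow ramp) and 9.68, 10.1 and 9.61 with long ones, and its change was -0.01 (95% interval -0.12 to 0.10). The change was -0.00 ± 0.04 for Vars2 and 0.00 ± 0.07 for Sars2 (SE). Yars2 was the 1 gene of the 9 called, beside 18.3% of all genes: it had 6.44, 6.32 and 6.85 with short and 6.97, 8.39 and 8.16 with long fragments, a rise of 0.26 ± 0.07 (adjusted p = 0.021 in edgeR and 0.246 in DESeq2).

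In pull-down the calls differed with and without the low-depth library and with the scaling. Aars2 had 12.6, 12.9 and 10.9 normalised CPM with short fragments (fast, medium and slow ramp) and 7.04, 9.73 and 15.8 with long ones, the last being the low-depth library on 20 counts. With all 9 libraries 0 of the 9 genes were called by edgeR, beside 6.23% of all genes, and DESeq2 called 0 of the 9 and 1303 genes in all. An unadjusted p under 0.05 in edgeR was found for 4 (Aars2, Iars2, Sars2 and Vars2), beside 26.7% of all genes. Without that library those 4 genes fell, by 0.59 (Aars2, adjusted p = 0.00193), by 0.17 (Iars2, adjusted p = 0.0295), by 0.53 (Sars2, adjusted p = 0.00956) and by 0.47 (Vars2, adjusted p = 0.00239), and 37.4% of all genes were called. On library totals with all 9 libraries edgeR called 4 genes, Aars2 (adjusted p = 0.0409), Fars2 (adjusted p = 0.0461), Iars2 (adjusted p = 0.0305) and Sars2 (adjusted p = 0.0453). The median log2 change of all genes was -0.18 on that scaling, against -0.01 under TMM. The share of all genes called on it is not given here, so nothing is read from that count.

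The difference between methods was tested itself, as an interaction of length with method. Adjusted p was 0.00627 for Aars2, 0.00536 for Vars2, 0.0484 for Sars2 and 0.00475 for Lars2, 4 of 9 genes beside 34.1% of all genes. On library totals and on totals without rRNA genes and Lars2, 6 of 9 were called, with Iars2 (adjusted p = 0.000324 and 0.000202, against 0.145 under TMM) and Yars2 (0.00999 and 0.0127, against 0.0882) added. The share of all genes called on those scalings is not given here, so nothing is read from that count. Without the low-depth library Aars2, Vars2 and Sars2 kept adjusted p of 0.000968, 0.00031 and 0.0226, and Lars2 lost the call at 0.651. CT010467.1 did the same as Lars2, with 0.00573 with that library and 0.869 without it.

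**Figure D4:**
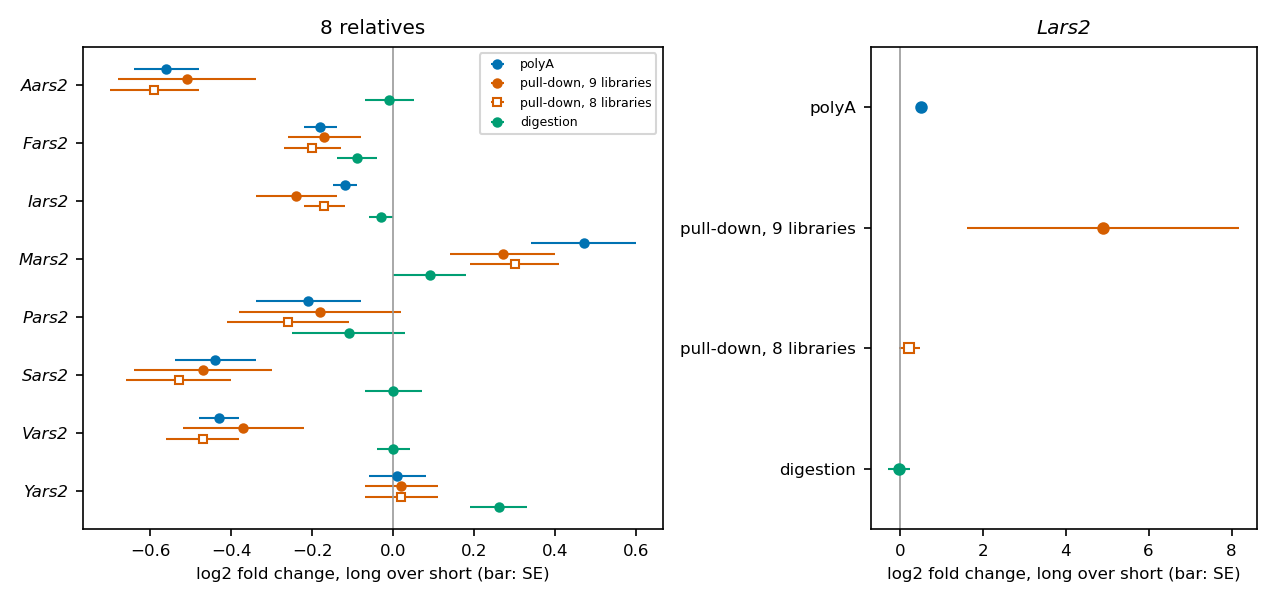
Log2 fold change of long over short fragments (x) with its standard error, for the 8 relatives (left) and Lars2 (right, wider axis), within polyA, pull-down with all 9 or the 8 full-depth libraries, and digestion. Aars2, Sars2 and Vars2 lie between -0.37 and -0.59 in polyA and pull-down and at -0.01 to 0.00 in digestion, and the Lars2 value of 4.90 in pull-down drops to 0.23 without the low-depth library.

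For ramp rate and batch none of the 9 genes passed the threshold in edgeR. In fast against slow ramp edgeR called 0 of 9, beside 0.00692% of all genes (1 gene), and DESeq2 called 0 of the 9 and 5 genes in all. An unadjusted p under 0.05 in edgeR was found for 1 of the 9 (Yars2, log2 -0.16 ± 0.05), beside 4.14% of all genes. Between the unselected batches edgeR called 0 of 9, beside 0.00% of all genes, and DESeq2 called 0 of the 9 and 18 genes in all. With edgeR 2 of the 9 had an unadjusted p under 0.05, beside 5.5% of all genes. Those 2 were Mars2, with 2.22, 2.6 and 3.23 normalised CPM in batch 1 and 3.23, 4.03 and 4.85 in batch 2 (log2 0.60, 95% interval 0.11 to 1.09), and Yars2 (0.50, 0.11 to 0.89). Iars2 was the 1 relative whose batches did not overlap, with 50.2, 50.4 and 52.5 in batch 1 and 45.1, 46.8 and 47.2 in batch 2, beside 12.9% of all genes. For Lars2 the change between batches was 0.04 in the fit over all liver libraries, with a wide interval of -3.10 to 3.18. That interval rests on a spread estimated over all liver libraries, the low-depth one among them. Within the unselected batches the coefficient of variation of Lars2 was 1.6% and 2.7%. Its normalised CPM overlapped between these batches. Its share of counts did not, at 7.79 to 8.09% in batch 1 and 8.52 to 8.78% in batch 2.

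The 1 heart library allows no test, and its counting intervals cover counting error only. Mars2 stood out, with 10.6 normalised CPM in heart (89 counts, 95% Poisson interval 8.53 to 13.1) against 2.22, 2.6 and 3.23 in unselected liver of batch 1, 3.96-fold higher. Yars2 had 8.71 (6.83 to 11) against 2.62, 4.53 and 5.59, 2.05-fold higher, and Fars2 18.9 (16 to 22) against 12.2, 14.2 and 15.5. In each of these 3 genes heart lay above all 3 liver libraries, as it did for Iars2 with 55.6 (50.7 to 60.9) against 50.2, 50.4 and 52.5. Vars2 had 10.3 (8.21 to 12.7) against 13.9, 15.9 and 19.4, and Aars2 8.47 (6.62 to 10.7) against 9.19, 10.1 and 10.9, both below all 3. Sars2 with 4.53 (3.21 to 6.22) and Pars2 with 2.27 (1.36 to 3.54) lay inside the liver range under this scaling. Heart thus lay outside the 3 liver libraries in 7 of the 9 genes, beside 88.4% of all genes with a mean of 10 counts (37.9% above and 50.5% below).

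Beside the unselected liver libraries of batch 2, a comparison added after seeing the data and across batches, Mars2 was 2.63-fold and Yars2 1.45-fold higher in heart. Vars2 had 9.89, 13.1 and 16.6 normalised CPM there, so heart lay inside that range. The other 8 genes kept the same position as against batch 1.

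Lars2 itself was 2.1-fold higher in liver of batch 1 in normalised CPM, at 163241 in heart. The size of this difference depends on the scaling. On totals without rRNA genes and Lars2 it was 2.42-fold. As a share of all counts Lars2 held 6.14% in heart and 7.79 to 8.09% in these liver libraries. CT010467.1 was also lower in heart as a share of counts (58.3% against 72.5 to 73.5%). Per 100 counts of CT010467.1, Lars2 had 10.5 counts in heart and 10.6 to 11.1 in these liver libraries. Of the 9 genes, 3 were at least 2-fold apart between heart and liver in normalised CPM. This stands beside 47.6% of all genes with a mean of 10 counts, whose median log2 ratio was -0.21. On totals without rRNA genes and Lars2 that median was -0.41, Yars2 was 1.78-fold and Iars2 moved from log2 0.12 to -0.08. Sars2 then lay below all 3 liver libraries, at 4.8 against 5.21 to 7.32, and so did Iars2, at 58.8 against 60.7 to 64.6. As a share of the 8 relatives, which needs no scaling, Mars2 made up 8.9% in heart and 2.16 to 4.72% in unselected liver, and Vars2 8.6% against 10.8 to 18.2%.

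**Figure D5:**
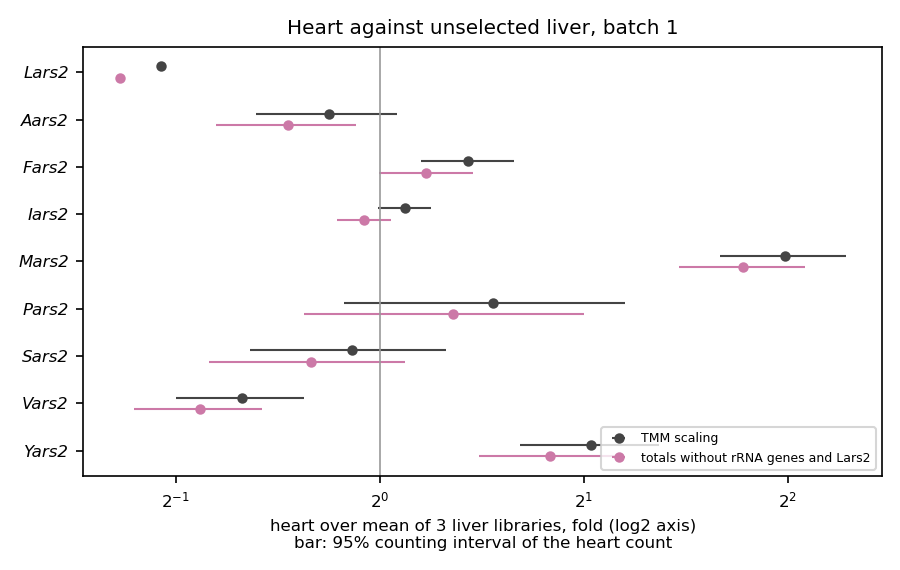
Ratio of the heart level to the mean of the 3 unselected liver libraries of batch 1 (x, log2 axis) for the 9 genes under 2 scalings, with bars for the 95% counting interval of the heart count only. Mars2 (3.96-fold) and Yars2 (2.05-fold) lie to the right, Vars2 (0.625-fold) and Lars2 (0.476-fold) to the left.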

How the data were processed

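RNA sequencing of 33 liver libraries and 1 heart library gave expected counts per gene, as deposited by the authors. Per the submitters' processing notes, Salmon 1.9.0, UMI-tools 1.1.1, R 4.4.0 and GRCm38 were used; the transcript set, bias correction, duplicate removal and strand setting are not given in the sources used here. Salmon shares reads between similar transcripts, so counts of genes that share sequence can move between them. Expected counts were rounded (10.5% were not whole) and tested with edgeR 4.0.16 (R 4.3.3): TMM, filterByExpr, quasi-likelihood F-test, Benjamini-Hochberg over all genes, threshold 0.05. Method and batch contrasts used 33 liver libraries with ramp and length as covariates, length and ramp 27 selected libraries, and effects within a method its 9. The code was tested on simulated data in which the groups did not differ in rRNA share. Scaling between libraries of unlike rRNA share was therefore not checked. Symbols, lengths and sequences came from GENCODE M21 (GRCm38). DESeq2 1.42.0, other scalings, no filter, left-out libraries, blocks and transcript lengths were alternatives. The members and lists were chosen with earlier results of these data known. Named genes were the 9, CT010467.1, the 5 most correlated with Lars2 and, per list, at most 4 with the largest called change; genes named for shared sequence or Spearman rank were chosen after values were seen. Replicate numbers of the unselected batches did not pair samples. Poisson intervals cover counting error only.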

Additional observations from a re-analysis of the deposited data

Results flagged for a closer look

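Library values on the log2 scale were screened for a single value far from the rest of its group in 27 groups of 9 libraries, by the gap to the nearest library as a share of the group's range; chance flags about 1 in 20 groups. In the low-depth pull-down library, Lars2 was highest (18175 normalised CPM, next 18, share 0.901), Pars2 was highest (5.52, next 2.75, share 0.671, on 7 counts) and Mars2 was lowest (1.58, next 2.8, share 0.656, on 2 counts). In the digestion library with a fast ramp and medium fragments, Lars2 was highest (214, next 97.8, share 0.542).

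The effect of long against short fragments differed between methods by an interaction test in edgeR for Aars2 (adjusted p = 0.00627), Lars2 (adjusted p = 0.00475), Sars2 (adjusted p = 0.0484) and Vars2 (adjusted p = 0.00536). Without the low-depth library the Lars2 value was 0.651, and over the other alternatives it ran from 0.000466 to 0.00424. The other 3 genes stayed under 0.05 in each alternative run, and Iars2 and Yars2 were also under it on both kinds of library totals.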

How the results depend on the processing

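Counts of the 9 genes called moved by over 1.5 times mainly with scaling. Nothing is read from the counts between methods, which entered the choice of the genes. The same holds for the counts on other scalings, since the shares of all genes called there are not given here. On library totals each selected set against unselected had 9 called (polyA 5, pull-down 3 and digestion 2 under TMM), with 4 in polyA against digestion (7) and 4 for length in pull-down (0). On totals without rRNA genes and Lars2, 8 were called in digestion against unselected, 4 in polyA against digestion and 1 for length in pull-down. In both scalings digestion against pull-down turned direction for Iars2 (0.31 and 0.30) and went from below 0 to about 0 for Fars2 (0.01 and 0.01) and Pars2 (0.03 and 0.03), as polyA against digestion went from above 0 to about 0 for Yars2 (-0.04 and -0.04), all log2; by construction these scalings move the median of all genes. DESeq2 called 0 for length in digestion (edgeR 1). Without the low-depth library 4 were called for length in pull-down. Leaving out each unselected replicate in turn gave 1 to 2 called in digestion against unselected. The cause of the last 3 was not tested.

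The replicate numbers of the unselected batches did not pair samples (correlation of deviations 0.001, -0.048 and -0.071 for same numbers). With the replicate number as a block, 0 of the 9 genes and 91 of all genes were called between batches, against 39 of all genes in the 6 unselected libraries without the block, a fit added after seeing the data.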
